A study of Mus with 21 samples.

Results

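The genes described here are 10 that encode neuropeptides of the hypothalamus, *Hcrt*, *Pmch*, *Avp*, *Oxt*, *Pomc*, *Agrp*, *Npy*, *Trh*, *Ghrh* and *Cartpt*. They were picked by gene symbol from the 55335 rows of a table of read counts, and all 10 were among the 30552 genes with enough reads to be tested. The reads came from the whole brains of female mouse embryos at E17.5, with 1 library of poly(A) RNA for each of 21 embryos. The 5 *WT* embryos were *Wapl* +/+; *Nipbl* +/+, the 7 *Wapl*Δ/+ embryos were heterozygous for *Wapl* delta with *Nipbl* +/+, the 3 *Nipbl*+/- embryos were *Wapl* +/+; *Nipbl* +/delta, and the 6 double heterozygotes carried both mutations. The proteins they encode put cohesin on chromatin (NIPBL) and release it (WAPL), and the study asked whether a lower dose of *Wapl* corrects transcription in *Nipbl*+/- brains.

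The *Wapl*Δ allele lacks the promoter and the first exons of *Wapl*, was made with *E2a-Cre* and was passed on by backcrossing. The *Nipbl* mutation was made by *Stra8-icre* in premeiotic male germ cells of the sires. Both alleles were thus inherited and are present in every cell of an embryo rather than in neurons alone. The mice were on a C57BL/6J background, the embryos came from a pair of crosses, and the sources used here do not tie a library to a litter. A library holds the RNA of a whole brain, so fewer cells of a type and less RNA per cell cannot be told apart.

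Neuropeptides are made as long precursors that are cut by enzymes, stored in dense-core granules and released onto receptors that signal through G proteins. In the arcuate nucleus, neurons that make NPY and AgRP promote feeding, while neurons that make POMC and CART oppose it. Magnocellular neurons of the supraoptic and paraventricular nuclei make vasopressin from *Avp* or oxytocin from *Oxt*, neurons of the lateral hypothalamus make orexin from *Hcrt* or melanin-concentrating hormone from *Pmch*, and *Trh* and *Ghrh* encode hormones that act on the pituitary. Not all of these genes are confined to the hypothalamus: *Npy*, for example, is also made by cortical interneurons and other neurons, and *Pomc* by the pituitary.

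Between 25682566 and 35818767 reads were counted on genes in a library (median 31830396), and no libraries were identical. Values below are counts scaled by edgeR's TMM method to a common library size, and a gene was called at a *P* below 0.10 in the quasi-likelihood test of edgeR after Benjamini-Hochberg adjustment. The labels were checked on the mutated genes: relative to *WT*, *Nipbl* transcripts were at 54.3% ± 4.52 (SD, n = 3) in *Nipbl*+/- brains and at 54.8% ± 1.78 (SD, n = 6) in double heterozygotes, and *Wapl* stood at 46.7% ± 4.51 (SD, n = 7) in *Wapl*Δ/+ brains and at 49.4% ± 1.90 (SD, n = 6) in double heterozygotes. The mitochondrial transcript *mt-Nd3* split the libraries into 9 with 52 to 106 reads (*WT* 4 and 5, *Wapl*Δ/+ 3 to 7, double heterozygotes 5 and 6) and 12 with 0 to 6 reads, which include all 3 *Nipbl*+/- libraries. Among embryos with a *Wapl* mutation these sets follow how the labels write the genotype, +/delta for the 7 with many *mt-Nd3* reads and delta/+ for the 6 with few; both forms were taken as 1 genotype, and the set and the written order cannot be told apart. In 3 libraries, *WT* 2 and double heterozygotes 5 and 6, growth hormone reads (*Gh*) numbered 215 to 2056, against 0 to 21 in the other 18. Results for the members that rest on these sets, and those for most gene lists, are given with and without them.

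*Npy* and *Avp* were the members that changed. In *Nipbl*+/- brains both fell to little more than 50% of their *WT* level, and both were also lower in double heterozygotes. Neither was called in *Wapl*Δ/+ brains. Of all genes tested, 6.96% were called lower in *Nipbl*+/- and 2.46% in double heterozygotes against *WT*, and 2.22% were called in either direction in *Wapl*Δ/+. The other 8 members were called in no comparison, and for *Pomc* the direction depended on the libraries that hold pituitary hormone reads.

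**Figure D1:**
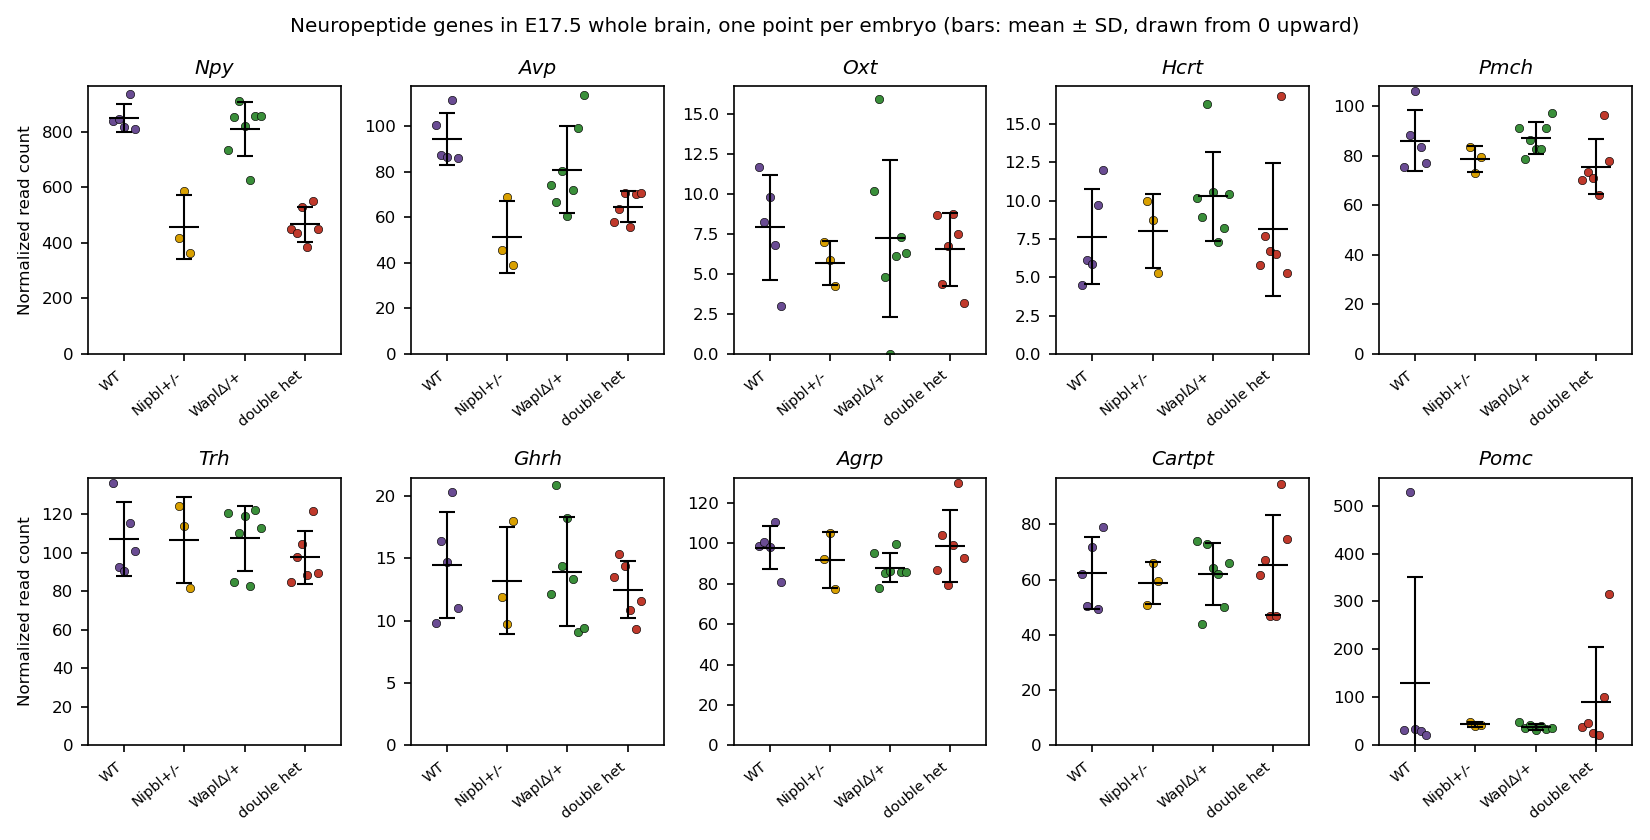
Normalized read count of each neuropeptide gene (vertical axes, from 0, with a scale of its own for each gene) in every embryo, grouped by genotype; each point is 1 library, horizontal bars are means and whiskers are 1 SD, drawn only above 0. For *Npy*, the 3 *Nipbl*+/- and 6 double-heterozygote points lie at 363.5 to 586, under all *WT* points at 809.8 to 934, and a single *WT* point at 527 sets the *WT* mean of *Pomc*.

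*Npy* encodes neuropeptide Y, a peptide that stimulates feeding and dampens neuronal excitability, and it lies on chromosome 6 of GRCm38 from 49822710 to 49829507. The 5 *WT* brains held 836.5, 845.5, 817, 934 and 809.8 normalized counts of *Npy*. The 3 *Nipbl*+/- brains held 418.5, 586 and 363.5, and the 6 double heterozygotes held 451, 435, 529, 384.5, 550.3 and 449. No library of either group reached the lowest *WT* library. The share of all genes that separate from *WT* in this way is not given here. In *Wapl*Δ/+ brains *Npy* ran from 624.5 to 912 with a median of 854, a range that took in all but the highest of the *WT* values.

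As group means, *Npy* was 849 ± 50.0 (SD, n = 5) in *WT*, 456 ± 116 (SD, n = 3) in *Nipbl*+/-, 808 ± 97.1 (SD, n = 7) in *Wapl*Δ/+ and 466 ± 61.95 (SD, n = 6) in double heterozygotes. These are 53.7% ± 13.7 (SD) of *WT* in *Nipbl*+/- brains, 95.2% ± 11.4 in *Wapl*Δ/+ brains and 55.0% ± 7.30 in double heterozygotes. In the order of the means, *WT* and *Wapl*Δ/+ did not differ beyond their spread, nor did double heterozygotes and *Nipbl*+/-, whereas the step between those pairs left no overlap.

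The log2 fold change of *Npy* in *Nipbl*+/- against *WT* was -0.90 (SE 0.103, 95% confidence interval -1.11 to -0.68, edgeR adjusted *P* = 7.30e-05). Of all genes tested, 6.96% were called lower in this comparison. In double heterozygotes against *WT* it was -0.85 (SE 0.0746, interval -1.01 to -0.69, edgeR adjusted *P* = 4.51e-06), where 2.46% of genes were called lower. Among the 12 libraries with few *mt-Nd3* reads the changes were -0.87 and -0.88, with edgeR adjusted *P* = 0.00242 and 1.49e-05. Among the libraries with many, the double heterozygotes gave -0.78 with 2 libraries a group, which was not called (edgeR adjusted *P* = 0.814), and there were no *Nipbl*+/- libraries to compare. *Npy* stayed called in each of the 8 and 11 fits that left out 1 library.

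*Npy* was also lower in both *Nipbl* mutant groups when they were set against *Wapl*Δ/+ brains. In double heterozygotes against *Wapl*Δ/+ the log2 fold change was -0.79 (SE 0.0853, edgeR adjusted *P* = 5.06e-05), and in *Nipbl*+/- against *Wapl*Δ/+ it was -0.82 (SE 0.126, edgeR adjusted *P* = 0.00469). In these comparisons 0.812% and 0.887% of genes were called lower, and *Npy* was the only member called. The latter call was lost in the libraries with few *mt-Nd3* reads, where only 2 *Wapl*Δ/+ libraries remain (log2 fold change -0.80, edgeR adjusted *P* = 0.536).

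*Avp* encodes vasopressin, the antidiuretic hormone, together with its carrier neurophysin, and lies on chromosome 2 from 130580620 to 130582588. Its normalized counts were 100.4, 87.2, 86.4, 112 and 86.0 in the 5 *WT* brains. In *Nipbl*+/- brains they were 45.7, 69.0 and 39.2, and in double heterozygotes 57.8, 63.7, 70.9, 55.5, 70.1 and 70.6. Every library with a *Nipbl* mutation lay below every *WT* library, and the share of all genes for which this holds is not given here. *Wapl*Δ/+ brains spanned 60.5 to 114 with a median of 74.1, and 5 of the 7 lay below all *WT* brains while 1 lay above them.

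The mean level of *Avp* was 94.3 ± 11.4 (SD, n = 5) in *WT*, 81.0 ± 19.1 (SD, n = 7) in *Wapl*Δ/+, 64.8 ± 6.85 (SD, n = 6) in double heterozygotes and 51.3 ± 15.7 (SD, n = 3) in *Nipbl*+/-. *Avp* was thus at 54.4% ± 16.6 (SD) of *WT* in *Nipbl*+/- brains and at 68.7% ± 7.26 in double heterozygotes. Each pair of neighbours in this order overlapped.

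The log2 fold change of *Avp* against *WT* was -0.88 in *Nipbl*+/- brains (SE 0.170, interval -1.23 to -0.52, edgeR adjusted *P* = 0.00348) and -0.53 in double heterozygotes (SE 0.111, interval -0.76 to -0.30, edgeR adjusted *P* = 0.0170). With few *mt-Nd3* reads the values were -0.83 and -0.55 (edgeR adjusted *P* = 0.0287 and 0.0664), and with many the double heterozygotes gave -0.47, not called with 2 libraries a group (edgeR adjusted *P* = 0.814). No library decided either call against *WT* when it was left out. With all libraries, 6.96% of genes tested were called lower in *Nipbl*+/- and 2.46% in double heterozygotes. Against *Wapl*Δ/+ brains *Avp* was not called. Its log2 fold change there was -0.65 in *Nipbl*+/- (interval -1.10 to -0.21, edgeR adjusted *P* = 0.235) and -0.31 in double heterozygotes (interval -0.60 to -0.03, edgeR adjusted *P* = 0.441).

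*Oxt*, which encodes oxytocin, is the neighbour of *Avp* on chromosome 2 and ends 3565 bases before it starts. It was near the limit of detection at this depth. Its read counts were 3 to 13 in *WT* brains, 4 to 7 in *Nipbl*+/- brains, 0 to 16 in *Wapl*Δ/+ brains and 3 to 9 in double heterozygotes. The single 0, in *Wapl*Δ/+ 4, allows up to 3 reads or 2.88 normalized counts, counting error alone considered. The groups overlapped throughout, and the 95% intervals for *Oxt* were among the widest of the members, from -1.39 to 0.44 on the log2 scale in *Nipbl*+/- against *WT*. A loss as large as that of *Avp* lies within that interval.

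The remaining feeding peptides of the arcuate nucleus did not follow *Npy*. *Agrp* encodes agouti-related peptide, which blocks melanocortin receptors and is made with NPY in the same arcuate neurons. It had 81.0 to 111 normalized counts in *WT* brains, 77.3 to 105 in *Nipbl*+/- brains, 77.6 to 99.8 in *Wapl*Δ/+ brains and 79.5 to 129.9 in double heterozygotes. Relative to *WT* its mean was 93.7% ± 14.1 (SD, n = 3) in *Nipbl*+/- and 101% ± 18.0 (SD, n = 6) in double heterozygotes, and its 95% interval against *WT* was the narrowest of the 7 members other than *Npy*, *Avp* and *Pomc*, at -0.38 to 0.18 in *Nipbl*+/- and -0.23 to 0.28 in double heterozygotes. Those intervals do not reach the change of *Npy* in the same libraries. *Cartpt* encodes the CART peptide, which reduces feeding, and its group means ran from 58.7 ± 7.72 (SD, n = 3) in *Nipbl*+/- to 65.3 ± 18.1 (SD, n = 6) in double heterozygotes, beside 62.5 ± 13.0 (SD, n = 5) in *WT*.

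Peptides of the lateral hypothalamus overlapped in all groups. *Hcrt*, the orexin precursor that sustains wakefulness, had only 5 to 18 reads a library, with means of 7.65 ± 3.10 (SD, n = 5) normalized counts in *WT*, 8.0 ± 2.41 (SD, n = 3) in *Nipbl*+/-, 10.3 ± 2.92 (SD, n = 7) in *Wapl*Δ/+ and 8.13 ± 4.33 (SD, n = 6) in double heterozygotes. *Pmch*, whose product melanin-concentrating hormone promotes feeding and sleep, was steadier, with 86.0 ± 12.3 (SD, n = 5), 78.6 ± 5.35 (SD, n = 3), 87.1 ± 6.42 (SD, n = 7) and 75.5 ± 11.1 (SD, n = 6) in the same order. Reads on *Pmch* may include reads of *Parpbp*, which overlaps it, and those on *Agrp* may include reads of the noncoding *Gm38250*, since the strand setting of the counting is not given in the sources used here.

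The releasing hormones were at similar levels across genotypes. *Trh*, which drives release of thyrotropin, averaged 107 ± 19.1 (SD, n = 5) in *WT*, 106 ± 22.2 (SD, n = 3) in *Nipbl*+/-, 107 ± 16.8 (SD, n = 7) in *Wapl*Δ/+ and 97.7 ± 13.7 (SD, n = 6) in double heterozygotes. *Ghrh*, which drives release of growth hormone, averaged 14.5 ± 4.24, 13.2 ± 4.29, 13.9 ± 4.37 and 12.5 ± 2.28 (SD, with the same numbers of libraries). Taking *Oxt*, *Agrp*, *Cartpt*, *Hcrt*, *Pmch*, *Trh* and *Ghrh* as a group of 7, none was called in any of the 7 comparisons, and each of their 95% intervals took in 0. Their log2 fold changes lay between -0.48 and 0.07 in *Nipbl*+/- against *WT*, between -0.15 and 0.44 in *Wapl*Δ/+ against *WT*, and between -0.26 and 0.12 in double heterozygotes against *WT*.

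**Figure D2:**
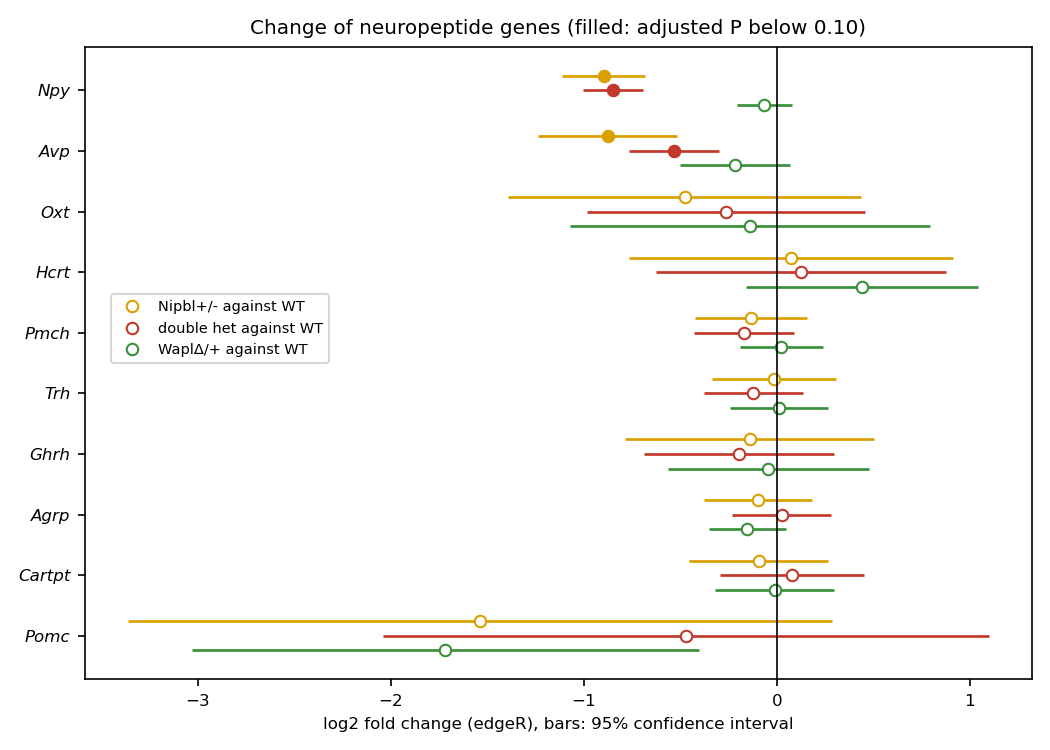
Log2 fold change against *WT* (horizontal axis) of each neuropeptide gene (rows) in *Nipbl*+/-, double-heterozygote and *Wapl*Δ/+ brains; points are edgeR estimates, filled where called, and lines are 95% confidence intervals. Only *Npy* and *Avp* have filled points, at -0.90 and -0.85 for *Npy* and at -0.88 and -0.53 for *Avp*, and the intervals of *Pomc* are the widest.

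*Pomc* encodes pro-opiomelanocortin, the precursor of the melanocortins, ACTH and beta-endorphin. Its normalized counts were 33.2, 527, 34.4, 29.1 and 22.0 in *WT* brains, 49.7, 39.9 and 42.4 in *Nipbl*+/- brains, and 38.5, 47.2, 26.8, 20.7, 101 and 315 in double heterozygotes. In *Wapl*Δ/+ brains it ran from 31.7 to 48.7 with a median of 36.8. The 3 high values, 101, 315 and 527, are the 3 libraries with 215, 778 and 2056 reads of *Gh*, and in the other 18 libraries *Pomc* was between 20.7 and 49.7. *Gh* is made by somatotrophs of the anterior pituitary, and *Pomc* is made by corticotrophs and melanotrophs of the pituitary as well as by arcuate neurons.

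Of the 13 other genes on a list of pituitary markers, 7 had more reads in both *WT* 2 and double heterozygote 6 than in any of the 18 libraries with little *Gh*, and 2 had more in double heterozygote 5. *Cga*, the shared subunit of the glycoprotein hormones, had 76 reads in *WT* 2 and 40 in double heterozygote 6, but only 4 in double heterozygote 5, within the 0 to 11 of the other libraries. The receptor *Ghrhr* had 48, 37 and 5 reads in these 3 libraries and 0 to 2 elsewhere. *Lhx4* and *Pax7* were not above the other libraries in any of the 3. Over the list of 14 pituitary genes, the summed level ran from 475 to 2834 normalized counts in *WT*, from 553 to 698 in *Nipbl*+/-, from 499 to 689 in *Wapl*Δ/+ and from 523 to 1622 in double heterozygotes. Much of this sum was *Pax7*, at 343 to 407 in *WT* and with means of 452, 444 and 423 in *Nipbl*+/-, *Wapl*Δ/+ and double heterozygotes. The sum is therefore not a measure of pituitary RNA.

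*Pomc* was called in no comparison, and its sign followed the 3 libraries. Against *WT* its log2 fold change was -1.54 in *Nipbl*+/- (edgeR adjusted *P* = 0.356), -1.72 in *Wapl*Δ/+ (edgeR adjusted *P* = 0.188) and -0.47 in double heterozygotes (edgeR adjusted *P* = 0.859). Without the 3 libraries the values were 0.56, 0.38 and 0.17 (edgeR adjusted *P* = 0.121, 0.383 and 0.830). The remaining *WT* libraries then averaged 29.7 ± 5.58 (SD, n = 4) and the *Nipbl*+/- libraries, at 44.0 ± 5.12 (SD, n = 3), lay above all of them. *Npy* and *Avp* kept their calls in both *Nipbl* mutant groups without these libraries, at -0.90 and -0.90 in *Nipbl*+/- and at -0.90 and -0.62 in double heterozygotes. How much of the *Pomc* in these libraries is pituitary RNA was not tested.

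**Figure D3:**
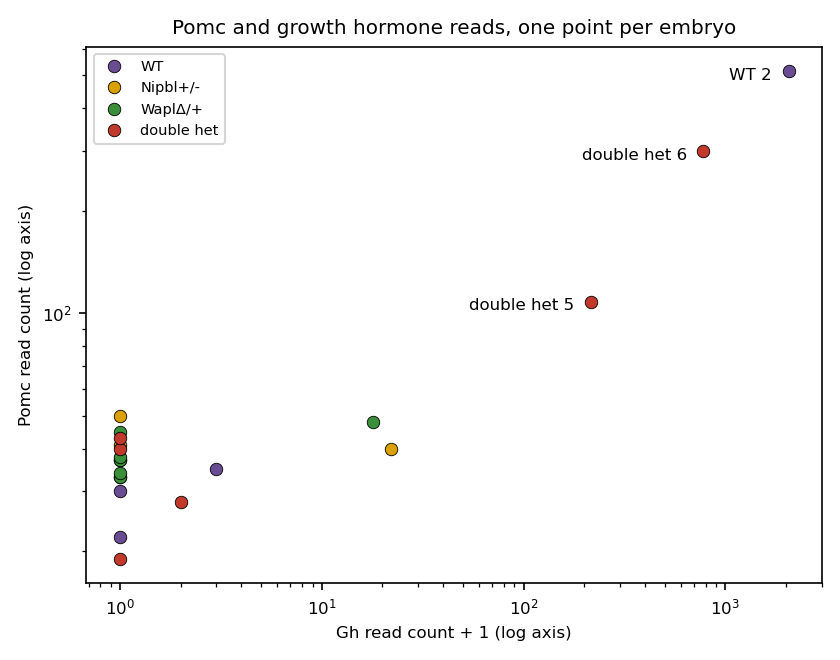
Reads of *Pomc* (vertical axis, log scale) against reads of *Gh* plus 1 (horizontal axis, log scale) in each of the 21 embryos, coloured by genotype. The 3 labelled libraries, with 215, 778 and 2056 *Gh* reads, hold 108, 299 and 514 *Pomc* reads, and the other 18 hold 19 to 50.

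Reduced *Wapl* dosage alone had no called effect on the members, while 2.22% of all genes tested were called in *Wapl*Δ/+ against *WT*. That share depends on single libraries: edgeR called 677 genes with all libraries, only 13 without *WT* 1, only 9 without *WT* 2 and 1534 without *Wapl*Δ/+ 2. With all libraries DESeq2 called 1422 genes. By edgeR, 1 member, *Pomc*, had an unadjusted *P* below 0.05, as did 4780 of the 30552 genes tested. DESeq2 called no member but gave no adjusted *P* for *Avp* and *Pomc*. The log2 fold change was -0.06 for *Npy* (interval -0.21 to 0.08, edgeR adjusted *P* = 0.71) and -0.22 for *Avp* (interval -0.50 to 0.07, edgeR adjusted *P* = 0.475).

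The direct test of correction sets double heterozygotes against *Nipbl*+/- brains, and no member was called in it by edgeR or DESeq2, with 0 members at an unadjusted *P* below 0.05. Over all genes edgeR called 0.00655% in this comparison and DESeq2 called 5 genes, and 1259 genes had an unadjusted edgeR *P* below 0.05. For *Npy* the log2 fold change was 0.04 (interval -0.25 to 0.32, edgeR adjusted *P* = 0.991), so a return to the *WT* level, a change of the size seen between *WT* and *Nipbl*+/-, lies outside the interval. For *Avp* it was 0.34 (interval -0.04 to 0.71, edgeR adjusted *P* = 0.971), and none of the 6 double heterozygotes lay below the lowest *Nipbl*+/- brain. With 3 *Nipbl*+/- libraries this interval holds both no change and a rise by most of what *Avp* had lost.

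The interaction of the genotypes, fitted on all 21 libraries, asks whether the effect of the *Nipbl* mutation depends on *Wapl* dosage. It was called by edgeR for 0% of genes and for no member (945 genes without double heterozygote 6 and 253 without *Wapl*Δ/+ 2, with no member called in either), and DESeq2 called 793 genes but none of the members, giving no adjusted *P* for *Avp* and *Pomc*. At an unadjusted *P* below 0.05, edgeR had 4221 genes and 2 members, *Avp* with an interaction of 0.53 (interval 0.04 to 1.01, edgeR adjusted *P* = 0.314) and *Pomc* with 2.75 (interval 0.47 to 5.02, edgeR adjusted *P* = 0.264), which became -0.78 without the libraries high in *Gh*. For *Npy* the interaction was 0.08 (interval -0.24 to 0.39, edgeR adjusted *P* = 0.889).

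Among the receptors of the member peptides several fell and none rose. Of 20 receptor genes, 6 were called lower in *Nipbl*+/- against *WT*, 5 in double heterozygotes and none in *Wapl*Δ/+ brains. Of the genes that averaged 1 CPM or more (counts per 1000000), 11.6% were called lower in *Nipbl*+/- brains and 4.13% in double heterozygotes. Of the 6, the largest falls were those of *Npy1r* and *Npy2r*, which averaged 11.9 and 3.28 CPM. The NPY receptor genes *Npy4r*, *Npy5r* and *Npy6r* were not called. They averaged 0.323, 1.16 and 0.0268 CPM, and so few reads on *Npy4r* and *Npy6r* cannot decide whether they changed. *Npy1r*, which mediates postsynaptic effects of NPY, went from 454 ± 40.3 (SD, n = 5) in *WT* to 272 ± 51.4 (SD, n = 3) in *Nipbl*+/- and 317.5 ± 38.4 (SD, n = 6) in double heterozygotes, log2 fold changes of -0.75 and -0.51 (edgeR adjusted *P* = 0.000206 and 0.00184). *Npy2r*, a mostly presynaptic receptor, went from 131 ± 15.2 (SD, n = 5) to 76.2 ± 5.14 (SD, n = 3) and 88.5 ± 8.61 (SD, n = 6), log2 fold changes of -0.78 and -0.55 (edgeR adjusted *P* = 0.000914 and 0.00699).

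*Mc5r*, a melanocortin receptor, was lower by -0.49 and -0.44 in those groups (edgeR adjusted *P* = 0.0666 and 0.0711). Both orexin receptors, *Hcrtr1* and *Hcrtr2*, and the oxytocin receptor *Oxtr* made up the other called receptors in *Nipbl*+/-, and *Hcrtr2* and *Oxtr* those in double heterozygotes. The median log2 fold change of the 20 receptors was -0.19 in *Nipbl*+/-, -0.12 in *Wapl*Δ/+ and -0.26 in double heterozygotes, beside -0.00862, -0.0034 and 0.000701 over all genes tested. Without the libraries high in *Gh* the called receptors numbered 5 in *Nipbl*+/- and 2 in double heterozygotes, and in the libraries with few *mt-Nd3* reads 5 and 1. Over all genes, in either direction, 2499 and 1218 were called without high *Gh* and 1881 and 672 with few *mt-Nd3* reads. With all libraries these totals were 3422 and 1001.

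Genes that cut and package the precursors also fell more often than they rose. Of 15 such genes, 7 were called lower in *Nipbl*+/- and 5 in double heterozygotes, beside 11.6% and 4.13% of genes at 1 CPM or more, with none higher and none called in *Wapl*Δ/+ brains. *Vgf*, a granin-like protein that is itself processed to peptides, was lower by -0.42 in *Nipbl*+/- and by -0.41 in double heterozygotes (edgeR adjusted *P* = 0.0149 and 0.00604). *Cadps2*, which primes dense-core granules for release, gave -0.40 and -0.24 (edgeR adjusted *P* = 0.000330 and 0.0737). The convertase *Pcsk2* gave -0.33 in *Nipbl*+/- and -0.22 in double heterozygotes (edgeR adjusted *P* = 0.000443 and 0.0378). The granin *Scg2* gave -0.33 and -0.23 (edgeR adjusted *P* = 0.000528 and 0.0207). The list medians were smaller, at -0.12 in *Nipbl*+/-, -0.03 in *Wapl*Δ/+ and -0.08 in double heterozygotes. Without the libraries high in *Gh*, 6 were lower in *Nipbl*+/- and 6 in double heterozygotes, and with few *mt-Nd3* reads 5 and 5.

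A wider list of neuropeptides made in the hypothalamus, among other regions, held 25 genes, of which 23 were tested and *Galp* and *Prlh* were not. In *Nipbl*+/- brains 6 were lower and none higher, and in double heterozygotes 7 were lower and none higher, beside the same 11.6% and 4.13% called lower, with none called in *Wapl*Δ/+ brains. *Nts*, the neurotensin precursor, fell furthest of the called genes, from 597 ± 67.2 (SD, n = 5) normalized counts in *WT* to 316 ± 96.4 (SD, n = 3) in *Nipbl*+/- and 386 ± 108 (SD, n = 6) in double heterozygotes (log2 fold changes -0.92 and -0.61, edgeR adjusted *P* = 0.000380 and 0.0241). *Cck*, the cholecystokinin precursor, gave -0.57 and -0.40 (edgeR adjusted *P* = 0.00237 and 0.0364). *Penk*, the enkephalin precursor, gave -0.51 and -0.29 (edgeR adjusted *P* = 0.000797 and 0.00780). The list medians were -0.22 in *Nipbl*+/-, 0.01 in *Wapl*Δ/+ and -0.14 in double heterozygotes. Without the libraries high in *Gh*, 6 were lower in *Nipbl*+/- and 7 in double heterozygotes, and with few *mt-Nd3* reads 6 and 6.

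Transcription factors that pattern the hypothalamus or specify its peptide neurons went the other way. Of 28, 16 were called higher and none lower in *Nipbl*+/- brains, where 7% of genes with at least 1 CPM were called higher, and 5 were higher and none lower in double heterozygotes, where 1.29% were. No factor was called in *Wapl*Δ/+ brains. The list medians were 0.28, 0.19 and 0.15 in *Nipbl*+/-, double heterozygotes and *Wapl*Δ/+. *Bsx*, a homeobox factor needed for normal *Npy* and *Agrp* expression, was raised by 0.53 in *Nipbl*+/- (edgeR adjusted *P* = 0.0357). *Gsx1*, which acts upstream of *Ghrh* neurons, was raised by 0.53 (edgeR adjusted *P* = 0.0991), and *Lhx5*, a factor of the developing hypothalamus, by 0.45 (edgeR adjusted *P* = 0.00165). *Otp*, which specifies vasopressin and oxytocin neurons, was among the 16, with 407 ± 33.1 (SD, n = 5) normalized counts in *WT* and 509 ± 74.6 (SD, n = 3) in *Nipbl*+/- brains. The 12 that were not called included *Sim1* (0.004) and *Pou3f2* (-0.09, edgeR adjusted *P* = 0.979 and 0.203).

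In double heterozygotes *Prdm12*, a factor of *Pomc* neurons, was higher by 0.47 (edgeR adjusted *P* = 0.0848) and *Lhx5* by 0.32 (edgeR adjusted *P* = 0.0488). *Prdm12* was also called higher in *Nipbl*+/-, by 0.37 (edgeR adjusted *P* = 0.0544). Without the libraries high in *Gh* the counts of higher factors were 11 and 3, and in the libraries with few *mt-Nd3* reads they were 5 and 2. Over all genes 3422 in *Nipbl*+/- and 1001 in double heterozygotes were called in either direction with all libraries. The fits without high *Gh* called 2499 and 1218, and those with few *mt-Nd3* reads 1881 and 672. Many of these factors are also expressed outside the hypothalamus at this age, so the list does not measure the share of hypothalamus in a sample by itself.

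**Figure D4:**
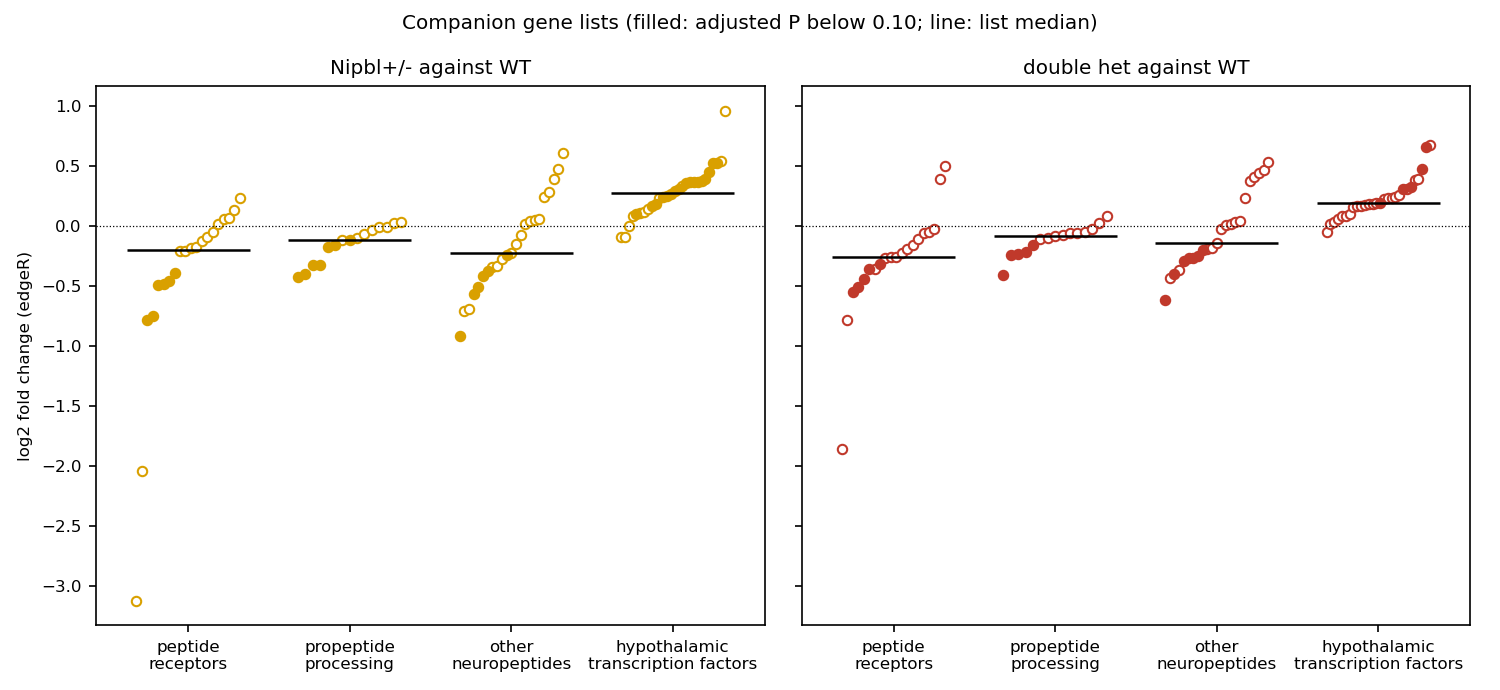
Log2 fold change against *WT* (vertical axis) of the tested genes of 4 lists in *Nipbl*+/- brains (left) and double heterozygotes (right); each point is a gene, sorted within its list, filled where called, and the black line is the list median. Filled points of the first 3 lists lie below 0, and those of the hypothalamic transcription factors lie above 0.

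Markers of other cells were measured beside these lists, and their part in the results was not tested. Their counts stand beside 11.6% of genes at 1 CPM or more called lower and 7% higher in *Nipbl*+/-, and 4.13% and 1.29% in double heterozygotes. Over all genes, calls in *Nipbl*+/- numbered 3422 with all libraries, 2499 without high *Gh* and 1881 with few *mt-Nd3* reads. In double heterozygotes they numbered 1001, 1218 and 672. Of 14 genes of neurons in general, 5 were lower in *Nipbl*+/-, and in double heterozygotes 1 was higher and 1 lower; the largest changes were those of the neurofilament gene *Nefm* in *Nipbl*+/- (-0.29, edgeR adjusted *P* = 0.000148) and the synaptic gene *Syt1* in double heterozygotes (-0.19, edgeR adjusted *P* = 0.0216). The summed level of the 14 was 251500 to 261700 normalized counts in *WT*, 237000 to 249100 in *Nipbl*+/- and 241200 to 266900 in double heterozygotes, and none of them was at 0 in any group. With few *mt-Nd3* reads 3 were lower in *Nipbl*+/-, and in double heterozygotes 3 were lower without the libraries high in *Gh* and 2 with few *mt-Nd3* reads. Of 9 astrocyte genes, 7 were lower in *Nipbl*+/- and 3 in double heterozygotes, with none higher. In double heterozygotes 6 were lower without the libraries high in *Gh* and 5 with few *mt-Nd3* reads. *Aqp4*, the astrocyte water channel, gave -0.79 and -0.56 (edgeR adjusted *P* = 0.00415 and 0.0213).

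Of 17 genes of cortical interneurons, cells that include a source of *Npy*, 7 were higher and 5 lower in *Nipbl*+/- brains. With few *mt-Nd3* reads, 2 were higher and 4 lower in *Nipbl*+/-. In double heterozygotes 1 was higher and 3 lower (2 and 4 without the libraries high in *Gh*). *Sp9*, a factor of immature interneurons, was higher by 0.41 and 0.35 (edgeR adjusted *P* = 0.000895 and 0.00204). *Nos1*, which marks a class of *Npy*-expressing interneurons among other neurons, was lower by -0.28 in *Nipbl*+/- and by -0.37 in double heterozygotes (edgeR adjusted *P* = 0.00128 and 0.00110). The summed level of the 17 ran from 24420 to 25690 in *WT*, from 24510 to 25450 in *Nipbl*+/- and from 23060 to 25140 in double heterozygotes. Of 12 pituitary genes tested, *Pax7* alone was called in *Nipbl*+/-, higher by 0.31 (edgeR adjusted *P* = 0.0135), and none in double heterozygotes. Choroid plexus, meninges and blood lists of 8, 7 and 7 genes had 1 called gene each in *Nipbl*+/-, and in double heterozygotes 1, 0 and 0. Without the libraries high in *Gh*, and also with few *mt-Nd3* reads, these lists had 0 called genes in *Nipbl*+/-. In double heterozygotes both fits called 1, 0 and 1. In *Wapl*Δ/+ brains 2 meninges genes, *Col1a1* and *Col1a2*, and *Pax7* were called higher and *Gh*, which had 0 to 2 reads in the other 4 *WT* libraries, was called lower. None of these genes was called without the libraries high in *Gh*, of which *WT* 2 is the only library in this comparison. Over all genes 677 were called with all libraries, 9 without *WT* 2 and 13 without *WT* 1, which had 0 *Gh* reads. No gene of the neuron, astrocyte, interneuron, choroid plexus or blood lists was called in *Wapl*Δ/+ brains with all libraries.

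The members differed in how much they varied between embryos of 1 genotype. The SD within groups on the log2 scale was 0.193 for *Npy* and 0.219 for *Avp*, 0.136 to 0.250 for the other members apart from *Pomc*, and 1.02 for *Pomc*, against a median of 0.0992 over 17303 genes with at least 1 CPM. Counting error is part of this spread and is larger for genes with few reads, such as *Hcrt*, *Oxt* and *Ghrh*, which averaged 0.277, 0.221 and 0.431 CPM, and *Avp*, which had 37 to 115 reads a library. It was not separated from the differences between embryos.

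Whether the members varied together from brain to brain was examined with group means removed, over the 45 pairs of members and 21 libraries. No pair passed a permutation test after Benjamini-Hochberg adjustment, 4 of the 45 had an unadjusted *P* below 0.05, and the strongest was *Avp* with *Npy*, with a Pearson's r of 0.623 (permutation *P* = 0.0142, adjusted *P* = 0.323) and a Spearman's rho of 0.623 (permutation *P* = 0.0118, adjusted *P* = 0.266). Without the 2 libraries farthest from the median of *Avp*, r was 0.543. It was 0.845 in the 12 libraries with few *mt-Nd3* reads and 0.412 in the 9 with many.

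Across the 21 libraries, with the groups left in, the genes most like *Npy* in log2 level among the 17303 were *Nell2* (r = 0.972), *Htr1a* (r = 0.962) and *Cplx2* (r = 0.960). Those most like *Avp* were the astrocyte transporter genes *Slc1a3* (r = 0.920) and *Slc6a11* (r = 0.905) and glutamine synthetase, *Glul* (r = 0.905). With group means removed the 6 values were 0.810 to 0.845. These are descriptions over libraries that share 4 genotypes, and the genes were picked as the highest of many.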

How the data were processed

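The authors trimmed reads with cutadapt 2.4, mapped them to mm10 (GRCm38.p6) with STAR 2.5.3a and counted them on genes with featureCounts (Subread 1.6.4). The deposited values are raw read counts without normalization. An excluded *Nipbl*+/- library was not analysed here. Groups were taken from the labels, and *P* values measure the spread between embryos.

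Tests were run by the quasi-likelihood method of edgeR 4.0.16 (R 4.3.3, TMM scaling). A gene was tested if its normalized counts over all 21 libraries summed to 10 or more. Comparisons of 2 groups used the libraries of those groups, and the interaction used all libraries. *P* values were adjusted over all genes tested. DESeq2 1.42.0, other filters and scalings, the replicate block, *mt-Nd3* sets and leaving out libraries were alternatives, and leaving out libraries with at least 100 *Gh* reads was chosen after seeing the data. Correlations used 100000 permutations within groups. Tests were tried on simulated data. Gene positions came from a RefSeq table of GRCm38.p6, which matched all 10 members. Replicate numbers do not pair libraries.

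All members are named, and from each list up to 3 called genes with the largest change and at least 1 CPM, and the 3 genes most like *Npy* and *Avp*. *Hcrtr1*, *Hcrtr2*, *Oxtr*, *Otp*, *Sim1*, *Pou3f2*, *Cga*, *Ghrhr*, *Lhx4*, *Npy4r*, *Npy5r*, *Npy6r*, *Galp* and *Prlh* are named outside this rule, after their values were seen. Some genes that the rule names are not reported here. Members and lists were chosen with earlier results of these data known.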

Additional observations from a re-analysis of the deposited data

Results flagged for a closer look

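Of 30 sets of libraries tested, each a member gene in *WT*, *Wapl*Δ/+ or double-heterozygote brains, 5 held a library far from the others. A rate of about 1 in 20 by chance holds only for normally distributed values in independent sets. These sets share libraries, and some rest on few reads. For *Pomc* these were *WT* 2 at 527 normalized counts, next to 34.4, and double heterozygote 6 at 315, next to 101. Both had many *Gh* reads. For *Hcrt* they were *Wapl*Δ/+ 3 at 16.3, next to 10.6, and double heterozygote 5 at 16.8, next to 7.68, which rest on 17 and 18 reads. For *Npy* it was *WT* 4 at 934, next to 845.5, and *Npy* stayed called in *Nipbl*+/- and double-heterozygote brains without that library.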

How the results depend on the processing

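In *Nipbl*+/- and double heterozygotes against *WT*, *Npy* and *Avp* kept their direction in every alternative and their call in all but 1: with the libraries high in *mt-Nd3* alone, 2 a group, 0 members were called in double heterozygotes. The number of members called also moved to 1 in *Wapl*Δ/+ against *WT* with the replicate block (*Avp*, log2 fold change -0.41, edgeR adjusted *P* = 0.0708), to 2 in double heterozygotes against *Wapl*Δ/+ with the libraries high in *mt-Nd3* alone (*Npy* and *Pomc*), and, in *Nipbl*+/- against *Wapl*Δ/+, to 2 (*Npy* and *Avp*) in one fit of all 4 groups, to 0 with the libraries low in *mt-Nd3* alone, and to between 1 and 2 with 1 library left out, 2 without *Nipbl*+/- 2. Leaving out 1 library moved no other such number. Over all genes, the replicate block called 1991 in *Wapl*Δ/+ against *WT*, beside 677 in the main fit. The libraries high in *mt-Nd3* called 29 in double heterozygotes against *Wapl*Δ/+, beside 311, and 1 against *WT*, beside 1001. In *Nipbl*+/- against *Wapl*Δ/+ the main fit called 354. There the fit of all 4 groups called 568, the libraries low in *mt-Nd3* called 8, and leaving out *Nipbl*+/- 2 gave 481. The causes were not tested.

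*Pomc* changed sign against *WT* without *WT* 2 (ranges over libraries left out: -1.81 to 0.56 in *Nipbl*+/-, -1.99 to 0.38 in *Wapl*Δ/+, -1.42 to 1.62 in double heterozygotes). With the libraries high in *mt-Nd3* alone it was 0.53 in *Wapl*Δ/+ and 3.02 in double heterozygotes against *WT*. In double heterozygotes against *Nipbl*+/- it was 1.05, -0.24 with the replicate block and -0.40 in the low *mt-Nd3* libraries or without high *Gh*; against *Wapl*Δ/+ it was 1.24, -0.36 in the low *mt-Nd3* libraries and -0.20 without high *Gh*. Without high *Gh* it was 0.56, 0.38 and 0.17 in *Nipbl*+/-, *Wapl*Δ/+ and double heterozygotes against *WT*, and -0.78 for the interaction. *Pomc* was called lower in *Nipbl*+/- against *WT* without a filter (-1.52) and with the block (-1.50), and in double heterozygotes with the libraries low in *mt-Nd3* alone (-2.54), each of which raised the members called from 2 to 3. Over all genes these fits called 4019 of 37953, 1893 and 672, beside 3422 and 1001 in the main fits of *Nipbl*+/- and double heterozygotes. For *Npy* in double heterozygotes against *Nipbl*+/-, a value of 0.04, the sign changed without high *Gh* or with low *mt-Nd3* alone (-0.0216) and ranged from -0.10 to 0.26 with 1 library left out; its interaction ranged from -0.038 to 0.34.

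The other 7 members were called in none of 1064 alternative fits, and in 100 of these their log2 fold change had another sign, at most 0.39 in size. Replicate numbers do not pair libraries: of 25 pairs with the same number 8 had correlated deviations over 0.1, from -0.23 to 0.404. Over all genes, the 3422 called in *Nipbl*+/- against *WT* became 1828 without *Nipbl*+/- 1, and the 1001 in double heterozygotes became 454 without *WT* 4 and 2504 without double heterozygote 5. Depth limits *Hcrt*, *Oxt* and *Ghrh*, and the 3 *Nipbl*+/- libraries limit each comparison that uses them.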
